A study of Mus musculus with 4 samples.

Results

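Wide stretches of open chromatin were examined in Treg cells from lymph nodes (LNs), where most of them lay at promoters, those of AP-1 and other early response genes among them, and a minority in repeated DNA or among crowded peaks. A wide region was a merged peak of 2000 bp or more. Peaks called in the 4 libraries were joined wherever they overlapped by 1 bp, and a joined region was kept when it lay on an autosome, held a called peak in all 4 libraries and lay outside the 44 windows of 1 Mb with 300 or more peaks in every library. This selected 830 wide regions of 32957 that met every condition but width (2.52%), from 272233 joined regions in all. Members were thus selected on the called peaks and the merged width, and these values are given as a description with no test. Covered bases build the merged width, so comparisons of them over the members are not independent of the selection.

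ATAC-seq, in which Tn5 transposase cuts and tags accessible DNA, was carried out on 50000 sorted cells for each of 2 WT and 2 Il2ramut/mut libraries. The mice were C57BL/6 females, 6 to 8 weeks old, naïve and unstimulated. All of them carried the Foxp3-RFP reporter (Foxp3 Rfp/Rfp), by which the cells were sorted as RFP+. Il2ramut/mut mice are homozygous for a point mutation in Il2ra, which encodes CD25, the alpha chain of the IL-2 receptor, and their Treg cells receive reduced IL-2 signals. The comparison asks whether the extent or rank of wide open regions differs between these genotypes.

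Treg cells are CD4+ T cells that restrain immune responses, depend on the transcription factor Foxp3 and need IL-2, which signals through STAT5. Most accessible sites are short gaps in the nucleosome array at a promoter or an enhancer. Broad accessible stretches are known at CpG-rich promoters of highly transcribed genes and of regulators of cell identity, where transcription factors and elongating polymerase keep nucleosomes mobile.

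The libraries held between 112569 and 142732 called peaks of a median width between 282 and 308 bp. Read totals were not given, so their depth is unknown and strength is expressed here as the percentile of a region's strongest peak among all peaks of its library, ranked by the −log10 p. In every library each fold enrichment paired with a single −log10 p, so both rank the peaks alike, and all fold values were whole multiples of a fixed step (100% within 0.05 of a step). The strongest peak of the median wide region reached 48 and 65 steps in WT replicates 1 and 2 and 61 and 58 steps in Il2ramut/mut replicates 1 and 2, against 17, 24, 21 and 20 steps over the 32957 regions. The label of the cells was checked at promoters. A peak lay within 1 kb of the TSS in all 4 libraries at Foxp3, at 25 of 30 Treg genes and at 24 of 24 TCR signalling genes. It did so at 1 of 8 B cell markers (Ebf1), 1 of 8 myeloid and dendritic markers (Zbtb46), 1 of 6 NK and CD8 markers (Cd8b1) and 2 of 6 stromal and endothelial markers (Pecam1 and Col1a1). The percentiles ran from 25.3 to 74.5 at Ebf1 and from 39.1 to 71.4 at Zbtb46, from 66.2 to 84.5 at Cd8b1 and from 88 to 92.2 at Col1a1. At the Foxp3 promoter they were 47.7 and 78.5 in WT and 72.6 and 79.7 in Il2ramut/mut, below Col1a1 in every library and below Cd8b1 in both WT libraries. Library medians over the Treg genes ran from 88.3 to 91.6. Some libraries had a promoter peak at further markers, as 3 did at the myeloid gene Cebpa (81, 86.2 and 88.8), 2 at Cd14 and 2 at Eomes. No library had a promoter peak at 6 of the 8 B cell markers, 5 of the 8 myeloid and dendritic markers, 4 of the 6 NK and CD8 markers and 3 of the 6 stromal and endothelial markers.

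Sequences at the summits show which DNA the wide regions hold. Each line gives 200 bases of the plus strand of mm10 around the summit of the strongest peak, read from the reference genome of that build. Capitals mark matches, on either strand, to 10 short words of transcription factors, namely ACTTCCGG (ETS), TGTGGTT (RUNX), TTCNNNGAA (STAT), TGANTCA (AP-1), GGGCGG (SP and KLF), CCAAT (the CCAAT box), TGACGTCA (CRE), CACGTG (E-box), ATCAAAG (TCF and LEF) and GGGNNTTCC (kappaB). Smok2a is the second widest promoter region, and the other 2 of the widest are distal, 185348 bp from the TSS of Tcp10c and 272302 bp from that of Gm21863. The widest promoter region, at Sfi1, is not shown because its summit window overlaps an annotated UTR. Klf13, Junb, Dusp1, Nfkbia, Socs1, Ctla4 and Gm21149 were chosen after their values were seen, as examples of regulator promoters, of a Treg gene and of the repeated stretch on chromosome 5.
Klf13, chr7:63939009-63939208: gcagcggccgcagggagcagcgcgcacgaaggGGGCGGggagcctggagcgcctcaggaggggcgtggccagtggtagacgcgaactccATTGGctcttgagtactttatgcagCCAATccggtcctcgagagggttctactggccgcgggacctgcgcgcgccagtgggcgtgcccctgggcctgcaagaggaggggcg
Junb, chr8:84978776-84978975: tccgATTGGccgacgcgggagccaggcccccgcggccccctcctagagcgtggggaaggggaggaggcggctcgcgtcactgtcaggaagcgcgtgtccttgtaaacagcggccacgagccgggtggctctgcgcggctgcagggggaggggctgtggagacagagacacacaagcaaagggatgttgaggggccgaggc
Dusp1, chr17:26508651-26508850: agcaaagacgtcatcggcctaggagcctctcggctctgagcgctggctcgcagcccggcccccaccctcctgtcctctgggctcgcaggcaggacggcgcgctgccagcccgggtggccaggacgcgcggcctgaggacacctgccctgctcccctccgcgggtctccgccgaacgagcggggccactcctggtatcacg
Nfkbia, chr12:55491874-55492073: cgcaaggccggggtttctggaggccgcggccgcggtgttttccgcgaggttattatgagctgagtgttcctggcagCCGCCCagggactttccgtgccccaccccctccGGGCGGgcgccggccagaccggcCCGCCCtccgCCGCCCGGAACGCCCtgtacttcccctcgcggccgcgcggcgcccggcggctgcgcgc
Socs1, chr16:10785123-10785322: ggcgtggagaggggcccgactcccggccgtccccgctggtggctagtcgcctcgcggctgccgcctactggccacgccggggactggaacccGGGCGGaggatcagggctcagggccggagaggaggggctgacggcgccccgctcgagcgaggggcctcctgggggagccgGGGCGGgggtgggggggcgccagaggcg
Ctla4, chr1:60913403-60913602: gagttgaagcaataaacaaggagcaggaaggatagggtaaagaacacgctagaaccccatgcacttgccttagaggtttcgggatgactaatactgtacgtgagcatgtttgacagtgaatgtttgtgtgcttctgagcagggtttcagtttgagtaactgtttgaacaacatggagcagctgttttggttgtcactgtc
Smok2a, chr17:13215619-13215818: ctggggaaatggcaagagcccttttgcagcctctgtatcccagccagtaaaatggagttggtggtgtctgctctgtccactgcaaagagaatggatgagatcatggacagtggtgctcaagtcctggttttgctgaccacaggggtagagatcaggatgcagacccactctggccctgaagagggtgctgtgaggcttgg
Tcp10c, chr17:13552793-13552992: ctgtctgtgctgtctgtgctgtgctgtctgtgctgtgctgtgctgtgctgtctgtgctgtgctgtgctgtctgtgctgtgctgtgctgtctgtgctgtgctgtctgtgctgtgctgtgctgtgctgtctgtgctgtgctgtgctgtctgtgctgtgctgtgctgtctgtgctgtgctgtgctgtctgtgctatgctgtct
Gm21863, chr12:20233112-20233311: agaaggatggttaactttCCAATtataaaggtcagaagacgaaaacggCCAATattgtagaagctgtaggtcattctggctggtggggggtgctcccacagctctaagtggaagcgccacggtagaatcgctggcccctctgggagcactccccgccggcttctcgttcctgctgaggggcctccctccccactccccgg
Gm21149, chr5:15470205-15470404: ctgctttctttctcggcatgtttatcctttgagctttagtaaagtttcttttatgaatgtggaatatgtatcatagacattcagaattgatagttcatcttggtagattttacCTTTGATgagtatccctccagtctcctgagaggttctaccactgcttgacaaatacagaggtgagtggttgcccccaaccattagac
Of the 5 regulator promoters shown, Klf13, Nfkbia and Socs1 carry GGGCGG and Klf13 and Junb carry CCAAT near the summit, on either strand. The Tcp10c window is a run of short tandem repeats, and the windows of Dusp1, Ctla4, Smok2a and Tcp10c hold none of the 10 words.

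Width had a long tail. The median was 2293.5 bp (quartiles 2121 and 2596.75 bp) against 726 bp over all 32957 regions. Of the 830, 584 were under 2500 bp, 153 from 2500 to under 3000 bp, 72 from 3000 to under 4000 bp, 14 from 4000 to under 5000 bp and 7 were wider, up to 15999 bp. Just inside the limit lay the promoters of Calm2 (2000 bp), Frat2 (2002 bp) and Brd3 (2002 bp), and just outside it, at 1999 bp each, regions nearest to Gm12887, Sorcs2 and Tpcn1. Without WT replicate 2, whose peaks were the widest, only 433 regions were wide.

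The merged width joined peaks that were often split within a library. A wide region was a single peak in 294 cases in WT replicate 1, 506 in WT replicate 2, 294 in Il2ramut/mut replicate 1 and 258 in Il2ramut/mut replicate 2. In 93 of them it was a single peak in every library and in 168 it was split in every library. The bases covered in all 4 libraries made up a median of 60.7% of the merged width. This shared core was itself 2000 bp or longer in 81 regions and under 25% of the width in 94.

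The wide regions were promoters far more often than narrower ones. Within 1 kb of a TSS lay 658 of 830 (79.3%), against 36.7% of the narrower 32127. A further 83 were intergenic, 80 intronic and 9 exonic. Of 12452 promoter regions 5.28% were wide, and of the distal regions 0.839%. Among regions of unrepeated sequence in uncrowded surroundings (defined below for the members), the promoter share was 11.5% at widths of 200 to 500 bp, 35.5% at 500 to 1000 bp, 71.3% at 1000 to 1500 bp, 81.7% at 1500 to 2000 bp, 88.1% at 2000 to 2500 bp and 90.1% above that. Share and width thus rose together along the whole range and not only at the limit. Of the wide regions 91 lay within 1 kb of the TSSs of 2 or more protein-coding genes, and 84 had coding TSSs on both strands.

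In 603 wide regions that covered a protein-coding TSS, accessibility reached further into the gene than before it. The region ran for a median of 1040 bp upstream and 1320 bp downstream, and it was longer downstream in 382 (63.3%). The summit stayed close to the start, at a median of 93 bp before it (−93 bp), within 500 bp in 479 regions. At 975 bp downstream, called peaks covered 53.9% and 68.8% of these regions in WT replicates 1 and 2 and 49% and 55.4% in Il2ramut/mut replicates 1 and 2. At 975 bp upstream, the shares were 39.5%, 50%, 35.2% and 39.7% in the same order. The downstream excess was present in each library, and WT replicate 2 was the highest at both places.

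**Figure D1:**
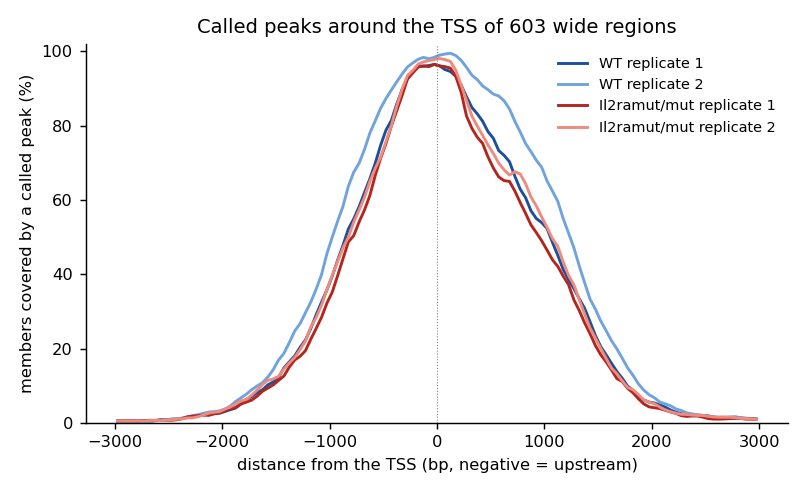
Percentage of the 603 wide regions covering a protein-coding TSS (y axis) that a called peak covered at each distance from that TSS (x axis, bp, bins of 50 bp, negative upstream), with 1 line per library. All 4 lines lean downstream, with 49% to 68.8% covered at 975 bp after the TSS and 35.2% to 50% at 975 bp before it.

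Base composition followed place. The median GC content was 60.6% in wide promoter regions and 58.4% in narrower promoter regions, and 49.7% and 47.9% in distal ones. The median ratio of observed to expected CpG was 0.759, 0.702, 0.199 and 0.221 in the same order. The word GGGCGG stood within the 200 bp at the summit of 67.8% of wide and 52.9% of narrower promoter regions, against 26% of all regions. CCAAT stood in 38.8% and 29.6% (23.9% of all). The word TGTGGTT of RUNX factors was in 2.58% of wide promoter, 3.93% of narrower promoter, 6.4% of wide distal and 11% of narrower distal regions (8.29% of all), and TGANTCA of AP-1 in 3.04%, 3.86%, 9.88% and 11% (8.26% of all). Of the others, the STAT word TTCNNNGAA was in 2.58% of wide promoter and 10.5% of wide distal regions (5.99% of all), and the ETS word ACTTCCGG in 3.34% of wide against 6.72% of narrower promoter regions (3.13% of all). TGACGTCA was in 2.89% of wide promoter regions (1.56% of all), CACGTG in 9.88% (5.95% of all), ATCAAAG in 1.22% (3.14% of all) and GGGNNTTCC in 5.17% (5.08% of all). A word match is a description of the letters and not a bound site.

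The wide regions stood high in their libraries but were not all strong. In 598 of 830 (72%) the strongest peak was above the 90th percentile in all 4 libraries, against 29.1% of the 32957 regions. At the other end, 51 fell below the 50th percentile in at least 1 library. Of these 51, 44 were crowded and 6 repeated, kinds of region that were defined after their values were seen and carry no test. In 38 regions, 30% or more of the 31-base words occurred more than once in the genome (repeated sequence). A further 82 stood among many called peaks, on average from 128 to 744 per library within 500 kb on each side (crowded surroundings). The remaining 710 (85.5%), with a median of 45.8 peaks around them, are called unrepeated here, and 629 of them were promoters. The name means under 30% repeated words, counted over the assembled chromosomes, and not that a region has a single copy. Median percentiles, averaged over libraries, were 96.7 in unrepeated, 80.5 in repeated and 66.7 in crowded members.

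**Figure D2:**
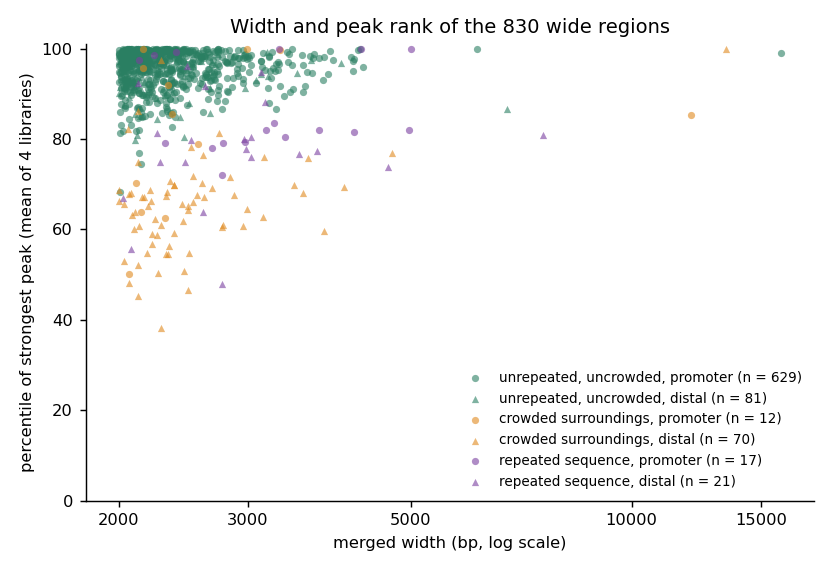
Merged width (x axis, bp, log scale) against the percentile of the strongest peak averaged over the 4 libraries (y axis) for the 830 wide regions, with 1 point per region, coloured by kind and shaped by promoter or distal place. The 629 unrepeated promoter regions crowd near the top, and crowded and repeated regions make up most points under 80.

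Of the 15 widest members, 6 were repeated, 3 crowded and 6 unrepeated. The widest of all, 15999 bp over the start of Sfi1 (chr11:3184154-3200152), was covered for 15927 and 15633 bp in WT and 15257 and 15934 bp in Il2ramut/mut replicates 1 and 2. It was followed by the intronic region nearest to Tcp10c (chr17:13539920-13553366, 13447 bp, covered for 11578, 12713, 13006 and 12718 bp) and the Smok2a promoter (chr17:13210324-13222370, 12047 bp, covered for 9307, 9406, 10976 and 11088 bp). Smok2a also held the most peaks, 11 and 10 in the WT and 6 and 4 in the Il2ramut/mut libraries, so that the mutant covered more of it in fewer pieces. Next came regions nearest to Gm21863 (7563 bp) and Vmn1r2 (6772 bp), at Gm26917 (6162 bp) and Gm10717 (5009 bp), at Gm43391 (4971 bp) and Gm21149 (4664 bp) on chromosome 5, near Hjurp (4715 bp), at Gm21738 (4275 bp) and at Smok2b (4191 bp). Repeated words made up 87.8% of the Gm10717 region and 13.7% of the Sfi1 region. Whether reads with several equal places in the genome were kept is not given in the sources used here. Gm21863 (up to 10 peaks in a library), Tcp10c and Zfp978 (up to 7 each) and Hjurp (up to 6) were the other regions with the most peaks.

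After Sfi1, Vmn1r2 and Gm26917, the widest unrepeated members were the promoters of Hivep2, Klf13 and Ptma. Repeated words made up 13.7% of the Sfi1, 10.1% of the Vmn1r2 and 16.45% of the Gm26917 region, so these were under the 30% limit but not free of repeats. Hivep2, a zinc finger factor that binds kappaB-like sites, had a promoter region of 4309 bp (chr10:13964269-13968577), covered for 3851 and 3839 bp in WT and 3380 and 3833 bp in Il2ramut/mut. At Klf13, a zinc finger factor of T cells, the region spanned 4269 bp (chr7:63935872-63940140), covered for 3906, 4266, 3736 and 3769 bp, with its strongest peak at percentiles 99.9, 99.9, 99.9 and 100 in the same order. Ptma, which encodes prothymosin alpha, followed with 4238 bp (3871, 3694, 3065 and 4022 bp covered). The genotypes overlapped at Ptma. At Hivep2, by as little as 6 bp, and at Klf13 both WT values were the higher in these bases as called, but the genotypes overlapped once the median of each library over all regions was taken out, with mean differences then toward the mutant.

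Among protein-coding genes on autosomes outside the dense windows, 712 of 20666 (3.45%) had a wide region within 1 kb of a TSS. Lists of genes were compared with that share as a description. The lists were drawn up with earlier results of these data known and are not independent evidence.

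Immediate early and NF-kB genes had wide promoters most often of all the lists, 15 of 27 (55.6%). They included all 3 Jun family members listed, which are subunits of AP-1: Jun had a region of 3881 bp (chr4:95049796-95053676), Junb of 3756 bp (chr8:84975422-84979177) and Jund of 3393 bp (chr8:70698169-70701561). Covered bases were 3744 and 3818 in WT and 3632 and 3585 in Il2ramut/mut at Jun. At Junb they were 3738, 3199, 3283 and 3284, and at Jund 3144, 3290, 2924 and 3025. In these bases as called, WT was the higher in both libraries at Jun and Jund and overlapped with the mutant at Junb, and with library medians taken out the genotypes overlapped at all 3. The Zfp36 family, which encodes proteins that speed the decay of AU-rich mRNAs, was present with all 3 listed members, with 4176 bp at Zfp36l2, 3129 bp at Zfp36 and 2123 bp at Zfp36l1. The others were the TCR-induced factors Egr1, Egr2 and Nr4a3, the NF-kB subunit Rel and its inhibitor Nfkbia, the MAP kinase phosphatase Dusp1, Ier2, and the antiproliferative genes Btg1 and Btg2. Egr1, Ier2 and Zfp36l2 each had a second wide region within 20 kb of the first. At Nfkbia, whose summit carries the kappaB word shown above, 2037 bp were open, covered for 1431, 2025, 1616 and 1557 bp.

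**Figure D3:**
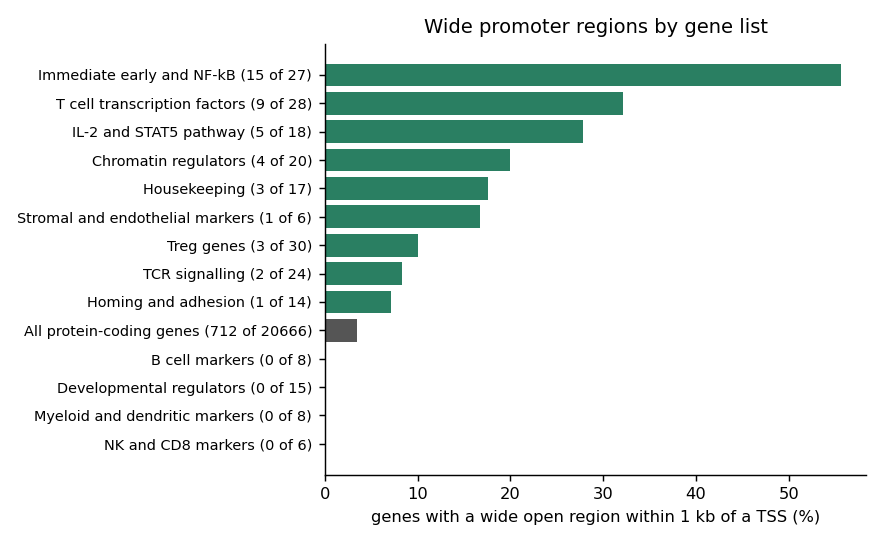
Percentage of the genes of each list with a wide open region within 1 kb of a TSS (x axis), with the number of such genes of those considered, and in grey the share over 20666 protein-coding genes. Immediate early and NF-kB genes reach 55.6% and the grey bar 3.45%, while the B cell, myeloid, NK and developmental lists stand at 0.

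T cell transcription factors had wide promoters at 9 of 28 genes (32.1%). Next to Klf13 these were the Foxo factors Foxo3 (2604 bp) and Foxo1 (2510 bp), the repressor Bach2 (2529 bp), and Klf2, Klf6, Zeb1, Satb1 and Cbfb. At Bach2 (chr4:32238223-32240751), 2337 and 2418 bp were covered in WT and 1600 and 1768 bp in Il2ramut/mut. At Klf2, which controls receptors for T cell recirculation, coverage was 1765 and 2313 bp against 1355 and 1047 bp. Both WT libraries lay above both mutant libraries at these promoters, as in 16.5% of all regions with library medians taken out. Neither passed in limma (adjusted p = 0.786 at Bach2 and 0.648 at Klf2). The percentile at Klf2 went the other way, from 98.70 and 98.72 to 99.03 and 98.87. With library medians taken out, WT was also the higher at Foxo3, at Klf6 and at a Satb1 promoter region (chr17:51831427-51833553). There 1801 and 2127 bp were covered in WT and 1534 and 1054 bp in Il2ramut/mut. The genotypes overlapped at Klf13, Foxo1, Zeb1, Cbfb and the other Satb1 promoter region (chr17:51812727-51814857). Bach2, Ets1 and Foxp1 had wide distal regions too, in introns of 3129 and 2188 bp at Ets1 and 2660 bp at Foxp1, and at Bach2 in an intron (2497 bp) and 20523 bp from the nearest TSS of the gene (2108 bp).

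Of the IL-2 and STAT5 pathway, 5 of 18 genes had wide promoters (27.8%). Bcl6, a transcriptional repressor, had 2675 bp, covered for 950 and 2209 bp in WT and 1946 and 1639 bp in Il2ramut/mut. Ccnd2, a G1 cyclin, had 2579 bp (2218, 2579, 2208 and 1889 bp covered), Socs1, the feedback inhibitor of JAK kinases, 2563 bp (2221, 2286, 1919 and 2422 bp) and Pim1, a survival kinase, 2173 bp (1717, 1911, 1657 and 2012 bp). Myc completed the list with 2037 bp. Genotypes overlapped in covered bases at Bcl6, Socs1 and Pim1, and WT was the higher in both libraries as called at Ccnd2 and at Myc (1656 and 1909 against 1435 and 1366 bp). With library medians taken out, the genotypes overlapped at Ccnd2 but not at Myc. Il2ra itself had no wide region: its widest open region (chr2:11642265-11643330) was 1066 bp, covered for 785 and 1012 bp in WT and 742 and 729 bp in Il2ramut/mut, with percentiles of 94.6, 95.1, 89.8 and 91.2.

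Treg genes had fewer wide promoters, 3 of 30 (10%). They were Izumo1r, the folate receptor of Treg cells (3198 bp), Lrrc32, which presents latent TGF-beta at the surface (2726 bp), and the surface receptor Nrp1 (2017 bp). Ctla4, the inhibitory receptor, had a region of 3663 bp that lay 1504 bp from its nearest TSS and overlapped an exon (chr1:60910675-60914337). It was covered for 2890 and 2985 bp in WT and 3300 and 3079 bp in Il2ramut/mut, the mutant being the higher in both libraries. Foxp3 lies on chromosome X and could not be a member, but its widest region (chrX:7594000-7598565) spanned 4566 bp, covered for 1490, 3849, 2220 and 2865 bp, with percentiles of 75.3, 79.9, 72.6 and 79.7.

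Chromatin regulators had 4 of 20 (20%): Kmt2e (3696 bp), the BAF complex subunits Arid1b (2957 bp) and Arid1a (2082 bp), and the DNA methyltransferase Dnmt3a (2275 bp). Kdm6b, a histone H3K27 demethylase, had a region of 4024 bp that lay 1371 bp from its nearest TSS. Housekeeping genes had 3 of 17 (17.6%), Ywhaz, Polr2a and Actb. TCR signalling genes had 2 of 24 (8.33%), among them the factor Nfatc2, with further wide regions inside Plcg1 and 3711 bp from the TSS of Cd3d. Homing and adhesion genes had 1 of 14 (7.14%), the chemokine receptor Cxcr4 (2642 bp). Stromal and endothelial markers had 1 of 6, Pecam1, which T cells also express. Developmental regulators had none of 15, and B cell, myeloid and dendritic, and NK and CD8 markers had none of 8, 8 and 6. Over genes with a called promoter region the share was 6.51%, close to that of TCR signalling (8.33%) and of homing and adhesion genes (7.69%, or 1 of 13). The B cell, myeloid and dendritic, and NK and CD8 lists held only 1, 0 and 1 genes with a called promoter region, so a share of 0 was all but fixed for them.

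Of the unrepeated members, 81 were distal. After those near Vmn1r2, Kdm6b and Ctla4, the widest were nearest to Olig3, Pkdcc, Myh9, Ets1 and Cd2, named here after their values were seen. The Olig3 region (3502 bp) lay 167409 bp from the TSS and the Pkdcc region (3198 bp) 60569 bp from it. At Myh9, which encodes a non-muscle myosin heavy chain, the region (3183 bp) lay 40545 bp from the TSS, and at Ets1 (3129 bp) 47234 bp. At Cd2, an adhesion receptor of T cells, it had 3078 bp and lay 7072 bp from the TSS. At Cd2, 2533 and 2609 bp were covered in WT and 2049 and 2441 bp in Il2ramut/mut, and at Myh9 2287 and 3054 bp against 2226 and 2421 bp. The genotypes overlapped at Myh9 and, once library medians were taken out, at Cd2. At Olig3 both WT libraries were the higher, with 3044 and 3123 bp against 1702 and 2436 bp (limma, adjusted p = 0.77). With library medians taken out, the same held in 16.5% of all regions. Of the 710 unrepeated members, 24 neighbouring pairs lay within 20 kb of each other, and 16 of these pairs had the same nearest gene.

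Between the genotypes, the total covered bases of the wide regions overlapped as called, though not under every setting. In total, called peaks covered 1699 ± 176 kb of them in WT (SD, n = 2) and 1544 ± 47.1 kb in Il2ramut/mut (n = 2; exact permutation test, two-sided, p = 0.667). Per library these totals were 1575 and 1824 kb in WT and 1511 and 1578 kb in Il2ramut/mut. WT replicate 2 was the highest and the other 3 were close, and without it the difference between mutant and WT moved from −155008 to −30572 bases. That step kept the same 830 members, though only 433 regions were wide when WT replicate 2 was left out of the joining. Since covered bases build the width that chose the members, nothing is read from the p-values for covered bases given here. Both WT totals lay above both mutant totals with equal numbers of peaks per library (−162178) and with a −log10 q of at least 3 (−147421). Exact permutation gave p = 0.333 for each. Over the 710 unrepeated members both WT totals were the higher as called (1372 and 1603 against 1292 and 1367 kb), while crowded members, given below, went the other way. The median covered bases of a member over the median of all regions was 3.62 and 3.53 in WT and 3.55 and 3.57 in Il2ramut/mut (exact permutation p = 1). The median percentile was 95.6 and 95.8 in WT and 95.8 and 96.4 in Il2ramut/mut (exact permutation p = 0.333, the smallest that 2 against 2 libraries can give), and the difference turned from 0.397 to −0.0848 points with equal numbers of peaks per library.

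Single regions were compared by limma over all 32957 regions. Covered bases were taken as log2 with the median of each library over all regions subtracted (centred), since peaks were called more widely in some libraries. No region passed an adjusted p of 0.05 (limma, Benjamini-Hochberg, 0 of 32957, or 0%, for covered bases and 0% for the percentile), and the lowest adjusted p was 0.131 for covered bases and 0.384 for the percentile. At an unadjusted p under 0.05 in limma, 53 of 830 members differed in covered bases, where 7.27% of all regions did (6.39% of members). For the percentile there were 24 (2.89%), where 6.12% of all regions did. With only peaks of a −log10 q of at least 3, 1 region was called for covered bases, the wide region at Gm21149 on chromosome 5, lower in Il2ramut/mut (adjusted p = 0.0423 by limma). It reached 2000 bp through the WT libraries, with 4362 and 4199 bp covered in WT against 245 and 205 bp with all peaks. Nothing is therefore read from this call. Over all alternatives run, the lowest adjusted p of a member in limma ranged from 0.0423 to 0.585 for covered bases and from 0.108 to 0.749 for the percentile.

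Centred covered bases of both mutant libraries lay above both WT libraries in 164 members (19.8%), against 19.6% of all regions, and below them in 147 (17.7%), against 16.5%. Without the centring, the counts were 55 and 298, against 8.73% and 28.3% of all regions. For the percentile, 274 members (33%) were higher in both mutant libraries, against 26.6%, and 84 (10.1%) higher in both WT libraries, against 12.7%. With library medians taken out of the score, these counts were 163 and 184, against 19% and 21.5% of all regions. With library medians taken out, the counts of members thus lay near the background for both measures. The kinds of region differed in their counts. Of unrepeated members, 114 (16.1%) were higher and 130 (18.3%) lower in covered bases in the mutant, near the 17.6% and 17.1% of all unrepeated promoter regions. Of crowded members 40 of 82 (48.8%) were higher and 2 lower, where 26% and 10.1% of all crowded regions were. The width limit favours regions that are wide in at least 1 library, so nothing is read from that excess. Of repeated members 10 of 38 were higher and 15 (39.5%) lower, where 21.6% and 17.1% of all repeated regions were, and 10 of the 15 lay in a single stretch of chromosome 5.

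**Figure D4:**
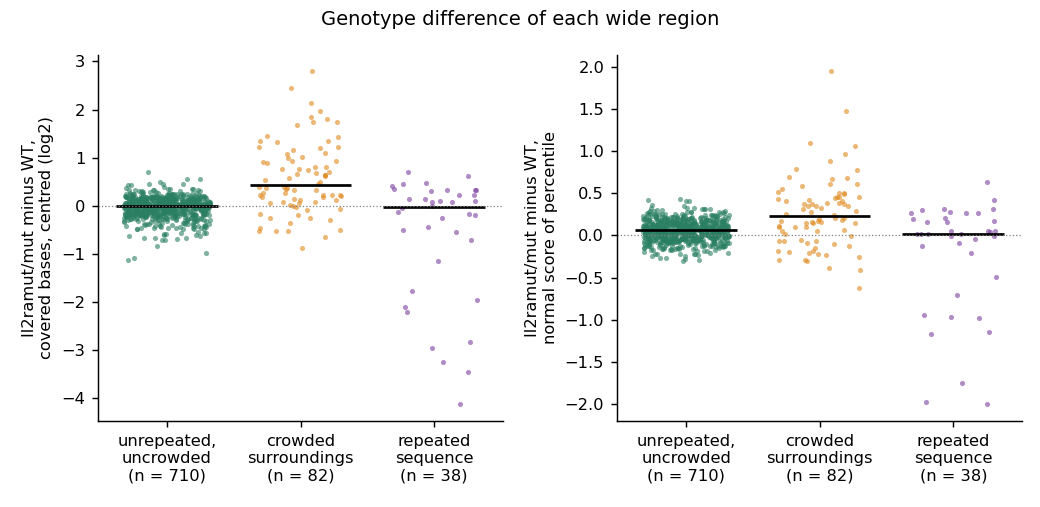
Il2ramut/mut minus WT for each of the 830 wide regions (points; bars mark medians), as the difference of mean centred log2 covered bases (left) and of the mean normal score of the percentile (right), by kind of region. Unrepeated members stay between −1.13 and 0.70 on the left, crowded members have a median of 0.43, and a group of repeated members reaches −4.12.

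Among unrepeated members the differences were small, with an SD of 0.22 on the log2 scale. Only 2 of 710 (0.282%) differed by 2-fold or more in centred covered bases, against 2.38% of all regions, 0.799% of unrepeated promoter and 1.41% of unrepeated distal regions. These were the Amigo2 promoter (chr15:97246598-97248751), covered for 1958 and 1859 bp in WT and 664 and 948 bp in Il2ramut/mut, and an intron of Vgll4 (1560 and 2005 bp against 714 and 809 bp). They and the following members are named after their values were seen. At Dusp6, a phosphatase of ERK kinases, 1284 and 2181 bp were covered in WT and 610 and 996 bp in the mutant. The promoters of the neighbouring nuclear RNAs Neat1 and Malat1 on chromosome 19 were both less covered in the mutant, with 3106 and 3366 against 1892 and 1963 bp at Neat1 and 1827 and 2433 against 1209 and 959 bp at Malat1. In none of these 5 did the genotypes overlap in covered bases, but the percentile went the other way at Malat1 and Vgll4. It moved from 94.6 and 94.0 to 96.4 and 96.5 at Malat1 and from 88.0 and 90.2 to 91.3 and 90.9 at Vgll4. The percentile was lower in both mutant libraries at Neat1 and overlapped at Amigo2 and Dusp6. In the other direction stood the interferon-induced Mx2 (970 and 1751 against 1526 and 2030 bp, not overlapping once centred) and an intron of Plcg1, a phospholipase of TCR signalling (1039 and 1651 against 1781 and 1526 bp). In percentile, the promoter of the corepressor Tle1 moved from 99.1 and 99.3 to 99.8 and 99.8, and a region before Bach2 from 78.2 and 83.8 to 89.1 and 91.2. Kdm6b moved from 97.4 and 98.2 to 95.1 and 96.6. The adjusted p of every unrepeated member was 0.396 or higher for covered bases and 0.72 or higher for the percentile (limma).

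The members with the largest falls all lay in a stretch of chromosome 5 (chr5:14960869-15691484) that holds copies of the Speer family, genes known from the testis, and predicted genes. It held 10 wide regions, and all 10 were less covered and lower in percentile in both mutant libraries, by 2.21-fold to 17.4-fold in centred covered bases. At Gm21149 (chr5:15466201-15470864), 4362 and 4199 bp were covered in WT and 245 and 205 bp in Il2ramut/mut. At Gm21190 (chr5:15525270-15528035), the values were 2536 and 2273 bp against 200 and 200 bp, at Speer4c 2505 and 2392 against 200 and 280 bp, at Gm43391 4174 and 4775 against 532 and 521 bp, and at Speer4cos 2306 and 2316 against 443 and 200 bp. The shortest peak called in any library is 200 bp, so both mutant libraries held a single peak of the lowest length at Gm21190. In percentile the 5 largest falls were here as well, at Gm21190 (84.2 and 76.7 against 5.42 and 25.3), Gm10354 (89.6 and 88.2 against 19.8 and 25.3), Speer4c, Gm17019 and Speer4cos.

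In sum over the 10 regions, called peaks covered 29927 and 30377 bases in WT and 5490 and 5453 bases in Il2ramut/mut. These values are a description with no test, since the regions were singled out for their falls and several of them, such as those at Gm21190 and Gm21149, reached 2000 bp through the WT libraries. Between the first and the last of them there were 250 and 253 called peaks in WT and 66 and 55 in Il2ramut/mut. In the 500 kb before the stretch there were 42 and 44 against 8 and 6, and in the 500 kb after it 28 and 32 against 9 and 23. Repeated words made up between 55.9% and 88.6% of the 10 regions, and their part in the difference was not tested. The 28 repeated members elsewhere covered 64271 and 70996 bases in WT and 68290 and 65393 bases in Il2ramut/mut and did not separate. Among these 28, 5 were less and 10 more covered in both mutant libraries, where 17.1% and 21.6% of all repeated regions were. The falls were thus near the background, and the members named next are examples picked after values were seen. The less covered included the promoters of the MHC class I genes H2-K1 (1517 and 2236 against 1130 and 1176 bp) and H2-D1 (1637 and 2017 against 1125 and 1220 bp), and the more covered Smok2b.

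**Figure D5:**
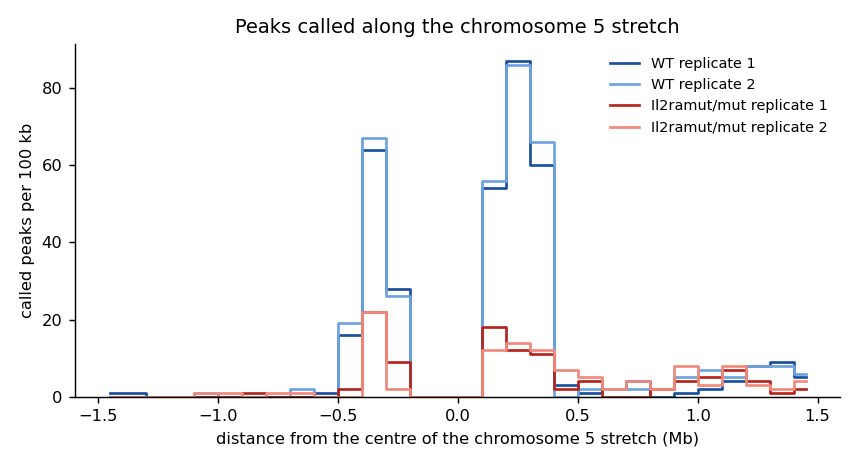
Called peaks per 100 kb (y axis) by distance from the centre of the chromosome 5 stretch (x axis, Mb), with 1 line per library. Both WT lines reach 86 or more peaks in a bin where the Il2ramut/mut lines stay at 12 and 14, and no library has a peak in the 3 bins from −0.15 to 0.05 Mb.

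The members with the largest gains in the mutant were all crowded. A region far from genes nearest to Camk1g (chr1:193793426-193795708) was covered for 200 and 200 bp in WT and 1173 and 1373 bp in Il2ramut/mut, a 6.95-fold difference once centred, and its percentile was 7.92 and 7.55 against 55.5 and 81.8. It was followed by regions near Gm4791 on chromosome 9 (200 and 675 against 1888 and 1789 bp), Igsf21 (229 and 664 against 1272 and 1917 bp) and Klhdc7a (410 and 573 against 1890 and 1593 bp) on chromosome 4, and Adgrb1 on chromosome 15 (729 and 373 against 1866 and 1555 bp). In percentile the largest gains were at Camk1g, at 2 regions near Gm4791, at Gm47153 beside them and at Igsf21. In no library did any of the 5 largest gains in covered bases pass a percentile of 83.3.

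Over the 82 crowded members, called peaks covered 109 and 120 kb in WT and 145 and 139 kb in Il2ramut/mut (114 ± 7.62 against 142 ± 3.99 kb, SD, n = 2 each). This is a description with no test, since the kind was defined after values were seen and members such as those near Camk1g and Klhdc7a had most of their covered width in the mutant libraries, so that the width limit itself favours regions that are high in one genotype. The median percentile was 70.7 and 62.1 against 72.6 and 76.5. The mean difference favoured the mutant in 65 of 82. They formed blocks. On chromosome 4 near Igsf21, Klhdc7a and Rcc2, 10 members between 140046631 and 140703310 covered 8505 and 8922 bases in WT and 15889 and 15736 bases in the mutant, and the number of peaks around them moved likewise, from medians of 278 and 283 to 454 and 484 peaks within 500 kb on each side. On chromosome 1 near Hjurp, Mroh2a and Trpm8, 9 members covered 17084 and 12561 against 20232 and 19840 bases, while the surrounding peaks numbered 151 and 127 against 145 and 164. On chromosome 9, 11 members near Gm4791 and Apoa1 covered 9562 and 15078 against 19554 and 14650 bases and overlapped. The part that the density of peak calls has in these differences was not tested.

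Promoter members had higher centred covered bases in both mutant libraries in 109 cases (16.6%) and lower in 120 (18.2%), and distal members in 55 (32%) and 27 (15.7%). Over all regions the shares were 19.6% and 16.5%. Only 12 of the 82 crowded members were promoters. Since the width limit favours regions that are wide in at least 1 library, nothing is read from the distal excess. Of the 172 distal members 81 were unrepeated, and of these 14 were higher and 14 lower (17.3% each), against 19.7% and 17.4% of all unrepeated distal regions. The median of centred log2 covered bases in promoter members exceeded that in distal members by 0.27 and 0.13 in WT and by 0.16 and 0.20 in Il2ramut/mut (difference −0.01, exact permutation p = 1). For the normal score of the percentile, it did so by 0.74 and 0.75 in WT and by 0.84 and 0.87 in the mutant (difference 0.11, exact permutation p = 0.333, the smallest possible). Only the score separated the genotypes, and its direction turned with the stricter peak threshold, to −0.03.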

How the data were processed

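ATAC-seq peaks of RFP+ LN Treg cells were analysed, 2 WT and 2 Il2ramut/mut libraries. Per the labels and the study's methods, the authors trimmed reads (Trim Galore 0.3.7), aligned them to mm10 with BWA mem (0.7.13), removed duplicated and mitochondrial reads (Picard 1.92, SAMtools 0.1.19), kept concordant pairs, shifted read 1 and called narrow peaks per library with MACS2 (2.1.0). The deposited values are the fold enrichment at the summit (a ratio), the −log10 p and −log10 q, a score of 10 times the −log10 q, and the summit's offset, an other unit counted in bases by the authors. Depth is unknown, so only ranks within a library and covered bases were used. The handling of reads with several places in the genome is not given in the sources used here.

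Peaks were joined and annotated in Python (3.11.15; numpy 2.4.6, pandas 2.3.3, scipy 1.17.1) on the GENCODE vM21 basic annotation, with mm10 coordinates. Genotypes were compared by limma (3.58.1, R 4.3.3) on log2 covered bases and on the normal score of the percentile, and by exact permutation over libraries. Steps were tested on simulated data. There limma was given 1 spread for all regions and changes far larger than the differences of unrepeated members. The check therefore does not give the power to find differences of the size seen. The members, gene lists and tests were chosen with earlier results of these data known. Named are the 15 widest members, the 5 with most peaks, list genes, the 5 largest non-overlapping genotype differences each way per measure, members at the width limit, Il2ra and Foxp3; the kinds of region, further members and further sequences were chosen after values were seen. The alternatives were other widths, joins, thresholds, annotations, centrings and left-out libraries. The study's methods call the 2 LN libraries of each genotype biological replicates, while the labels do not say whether each is a separate mouse. The p-values measure only the spread between these libraries. Figures used matplotlib (3.10.9).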

Additional observations from a re-analysis of the deposited data

How the results depend on the processing

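The number of wide regions rests on its threshold. It was 2886 at 1500 bp, 93 at 3000 bp, 136 where every library had to cover 2000 bases and 1362 with no window left out, and between 433 and 729 with each library left out (433 without WT replicate 2). The promoter share moved from 79.3% to 74.7% with protein-coding genes only and to 88.6% in unrepeated members, an alternative chosen after seeing the data. The 0 calls by limma stayed 0 in all fits run but the stricter peak threshold for covered bases, which gave 1. In alternatives also chosen after seeing the data, the non-overlapping members without centring numbered 55 and 298 for covered bases (mutant and WT higher), and with the median taken out of the score 163 and 184 for the percentile. Under the stricter threshold, the percentile was higher in WT in 32 of 752 members (4.26%, against 5.3% of all regions) and in the mutant in 398 (52.9%, against 44.4%).

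The difference in median percentile between the genotypes (0.397 points) turned to −0.0848 with equal numbers of peaks (112569 per library). The promoter against distal difference in covered bases turned to 0.00423 under the stricter threshold and ranged from −0.0835 to 0.0548 with a library left out, and that in the percentile score turned to −0.0337 under the stricter threshold. The cause was not tested. Total covered bases stayed lower in the mutant (−279445 to −30572) with a library left out and the same members kept. Replicate numbers are shared between genotypes in the labels but same-numbered libraries did not deviate together (correlation 0.0204 for covered bases and 0.0159 for the percentile, over regions). With the replicate block, limma gave 0 calls for both measures, and 2577 and 2004 regions at an unadjusted p under 0.05, against 2395 and 2017 without it. The chromosome 5 stretch kept its fall (log2 −2.64 to −2.45) and the crowded members their gain (0.25 to 0.53) in every alternative run, all chosen after seeing the data. Each alternative used the same members, and the width limit that chose them favours regions that are high in 1 genotype. Nothing is therefore read from the kept directions. Depth is unknown, and with 2 libraries a genotype no permutation p can fall under 0.333.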
